A study of Mus musculus with 2 samples.

Results

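The transcripts described here encode the proteins of the mitochondrial ribosome, read in mouse hepatocytes with and without a phosphomimetic ezrin. Genes were taken where at least 1 probe set was annotated to a single symbol made of Mrpl or Mrps and a number, which gave 76 genes and 156 probe sets out of 18193 genes and 34945 single-gene probe sets on the array. By symbol, 47 of them belong to the large and 29 to the small subunit. A background floor, explained with the processing, was exceeded in at least 1 array by 46 large subunit and all 29 small subunit genes, and in both arrays by 74 genes in all. Mrpl30 and Mrpl53 were left out because each of their probe sets is also annotated to another gene.

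Both samples came from male FVB mice of 6 to 8 weeks that received, by hydrodynamic injection into a tail vein, 10 µg of the plasmid PT3EF5α EzrinT567D with 0.8 µg of pCMV/SB in 2 ml of saline. Ezrin links membrane proteins to cortical actin, and the T567D form carries an acidic residue at the site where active ezrin is phosphorylated. Hepatocytes were isolated 1 week later as a GFP-negative fraction, called EzrinT567D negative, and a GFP-positive fraction, called EzrinT567D positive, with 1 array (Affymetrix Mouse Genome 430 2.0) for each. The negative cells are thus injected-liver cells without GFP, not cells of untreated mice, and neither sample carried an empty vector. How the fractions were separated, how many mice were used and whether they were pooled is not stated in the labels. The description fields of the samples go against the other labels: they give 2 months for both, with chow for negative cells and fast food for positive ones, whereas the growth protocol gives chow throughout. If the descriptions hold, diet and ezrin status cannot be told apart.

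Mitochondria carry their own ribosomes, which translate the few proteins encoded by mitochondrial DNA, all of them subunits of the respiratory chain and ATP synthase. The ribosomal RNAs are mitochondrial transcripts, but every protein of the mitochondrial ribosome is encoded in the nucleus, made in the cytosol and imported. The small subunit binds the messenger RNA and decodes it, and the large subunit forms the peptide bond and leads the new chain out at the inner membrane. Many of these proteins descend from bacterial ribosomal proteins, and others are found in mitochondria only. Hepatocytes are rich in mitochondria.

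Most mitochondrial ribosomal protein transcripts read slightly lower in EzrinT567D-positive than in EzrinT567D-negative hepatocytes. Of the 75 genes above the floor, 57 had a log2 ratio (positive over negative array) below 0 and 18 above it, where 46.5% of all 10178 genes above the floor read lower and 44.9% higher. The other 876 of all genes stood at 0, 875 of them as bounds. Above both floors, 56 of 74 genes (75.7%) read lower, against 49.4% of all 8362. Over the 75 genes the median log2 ratio was -0.14, which is 1.10-fold lower, beside 0.00 over all 10178 genes. Differences were small throughout: 22 genes (29.3%) read at least 1.2-fold lower against 18.2% of all genes, and 4 (5.33%) at least 1.2-fold higher against 21.9%. The excess at 1.2-fold lower nearly vanished without probe sets prone to bind several transcripts, at 10 of 56 genes (17.9%) against 17.1%. After a loess fit on signal it was 20 of 75 (26.7%) against 24.5%. That fit also moved genes above the floor in only 1 array, which are 1816 of all 10178 genes. Of the 75 genes here, 74 exceeded both floors, so the 2 loess shares are not like for like. At 1.5-fold, 2 genes were lower and 0 higher, beside 3.98% and 6.57% of all genes. None reached 2-fold, which 0.58% of all genes did on the lower and 1.34% on the higher side. With 1 array in each group no test exists, so these are counts in 2 arrays, with no error between animals. In bulk RNA, fewer cells rich in a transcript and less of it per cell cannot be told apart.

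The medians of the 2 subunits were close, and no test of their difference exists with 1 array per group. In the large subunit 35 of 46 genes were lower and 11 higher, with a median log2 ratio of -0.14 and a range from -0.79 to 0.31. In the small subunit 22 of 29 were lower and 7 higher, the median being -0.13 and the range -0.84 to 0.39. Lower readings of at least 1.2-fold were counted for 14 large (30.4%) and 8 small subunit genes (27.6%), against 18.2% of all genes. Higher ones were counted for 1 (2.17%) and 3 (10.3%), against 21.9%. Mrps30 and Mrps18a, though named for the small subunit, sit in the large subunit of the mammalian mitochondrial ribosome. Counted there, the medians were -0.14 and -0.13.

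**Figure D1:**
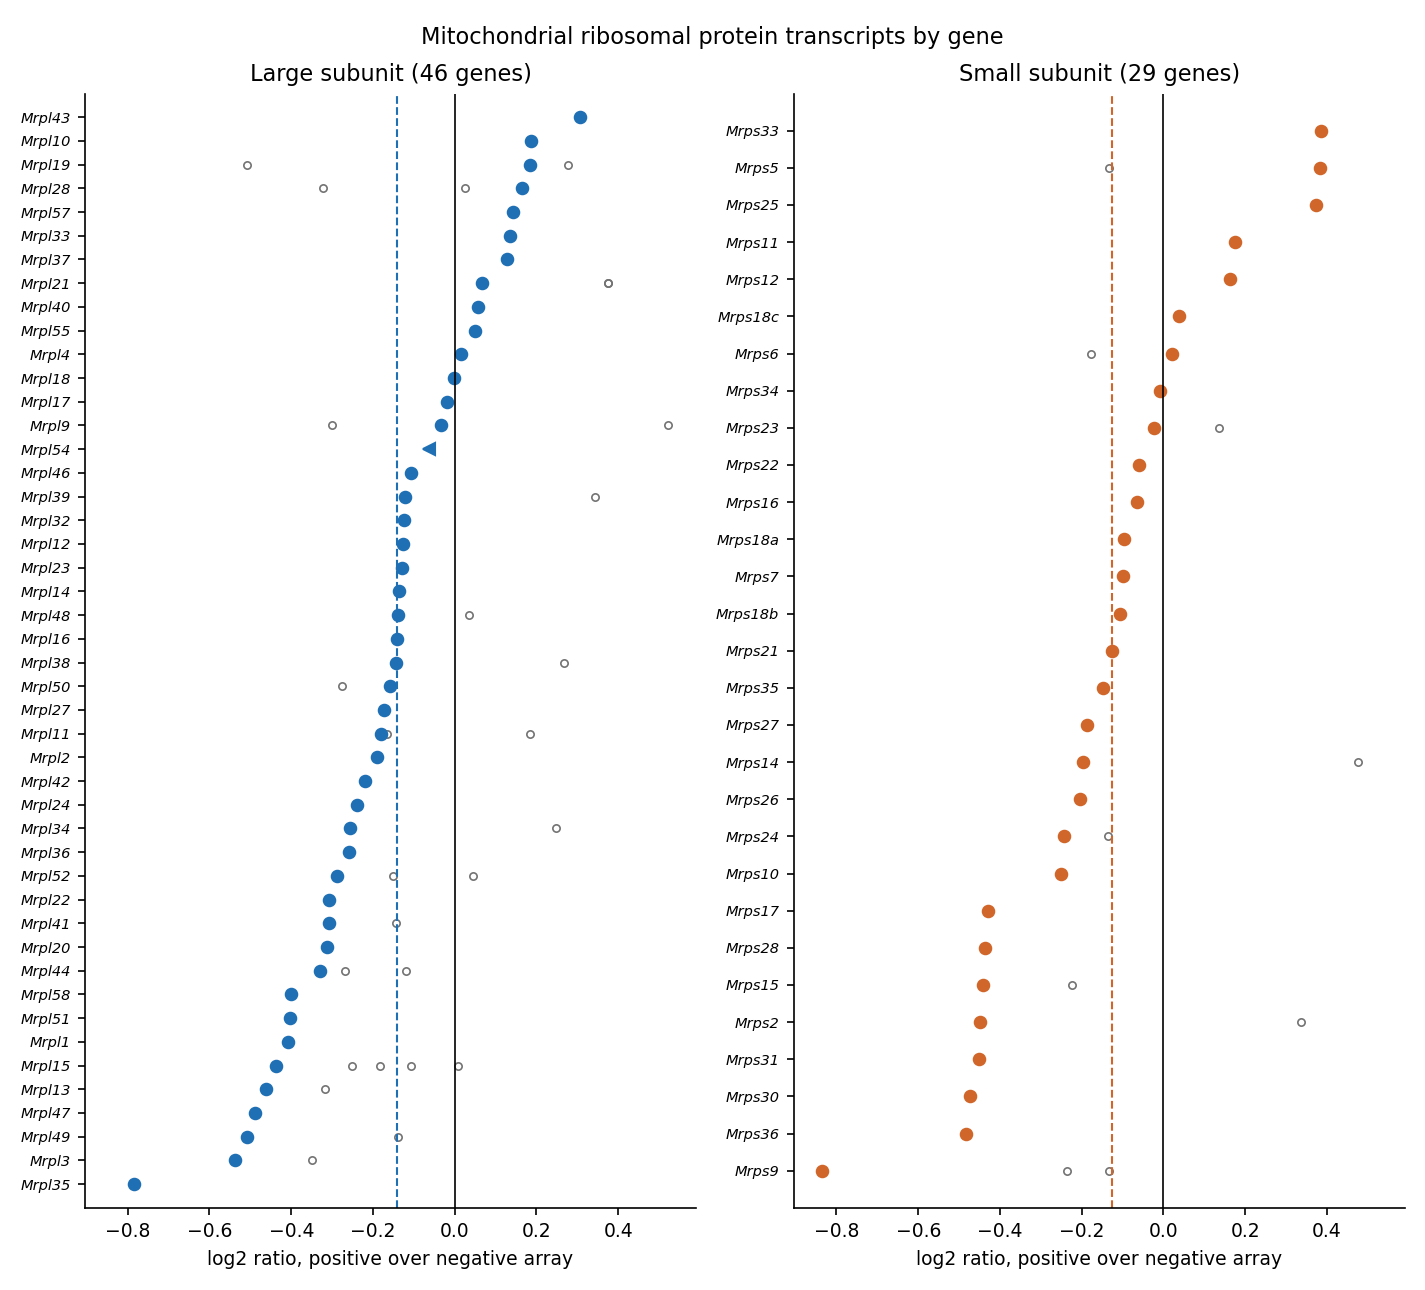
Log2 ratio of each mitochondrial ribosomal protein gene above the floor, large subunit left and small subunit right. Filled points are the brightest probe set of a gene, the triangle a bound (Mrpl54), open points its other probe sets that passed the floor on both arrays, and dashed lines the medians of -0.14 and -0.13. Most filled points lie left of 0, from -0.84 for Mrps9 to 0.39 for Mrps33, while many open points lie apart from the filled point of the same gene.

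In the large subunit the lowest ratio belonged to Mrpl35, a protein with a bacterial counterpart, whose signal was 763 in negative and 442.6 in positive cells (log2 ratio -0.79, 1.72-fold lower). It rests on 1 probe set, its others being below the floor. Mrpl3, which lies near the catalytic centre, read 1218.8 and 840.4 (-0.54), and its other probe set above the floor gave -0.35. The mitochondria-specific Mrpl49 read 1084.2 and 761.8 (-0.51), with a second probe set at -0.14. Mrpl47, a protein at the exit of the peptide tunnel, read 1740.3 and 1239.7 (-0.49). Mrpl13 was lower in all 3 of its probe sets above the floor, from -0.46 to -0.32, with 3092.4 and 2246.8 in the brightest. Mrpl15 read 2486.1 and 1836.2 (-0.44), but its 5 probe sets above the floor spread from -0.44 to 0.01. Of these 6 lowest genes, therefore, Mrpl3, Mrpl49 and Mrpl13 were lower in every probe set above the floor of several, Mrpl15 was not, and Mrpl35 and Mrpl47 have a single one.

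Among the large subunit genes that read higher, Mrpl43, a protein specific to mitochondria, came first with 1198.9 in negative and 1482.8 in positive cells (0.31, 1.24-fold higher). It was the only large subunit gene past 1.2-fold on that side. Mrpl10, which anchors the stalk where translation factors dock, read 1088.4 and 1239.4 (0.19). Mrpl19 read 3675.4 and 4172.7 (0.18), although its 3 probe sets above the floor ran from -0.51 to 0.28. Mrpl28 read 1344.8 and 1506.9 (0.16) with others down to -0.32. Mrpl57 (0.14) and Mrpl33 (0.13) followed, at 1794.7 and 1982.9 and at 1047.1 and 1149.6. Higher ratios were thus small, and for Mrpl19 and Mrpl28 the sign depended on the probe set.

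Genes of the same part of the large subunit did not all share a direction. These groupings were made with the values known. Around the peptide exit, where the new chain leaves, all 5 genes above the floor were lower, with a median of -0.24: Mrpl47, Mrpl22 (2571.3 and 2077.4, -0.31), Mrpl24 (-0.24), Mrpl23 (-0.13) and Mrpl17 (-0.02). Mrpl45, the exit protein that meets the inner membrane, read 250.9 and 17, below the floor in both arrays, so it has no ratio. In the stalks, Mrpl1 (1255.1 and 946.4, -0.41), Mrpl11 (-0.18) and Mrpl12 (-0.13) were lower and Mrpl10 higher. Of 7 genes listed for the central protuberance, the crest facing the small subunit, 6 were lower with a median of -0.14. Of all mitochondrial ribosomal genes above the floor 76% were lower, and of all genes 46.5%. The 6 include Mrpl18 at -0.001, and Mrpl38 and Mrpl48, which read higher in another probe set. The lowest of the 7 was Mrpl58 (1506.6 and 1142, -0.40), a release factor homologue built into the ribosome, and the highest was Mrpl40 (0.06). Mrpl54 exceeded the floor in the negative array only, at 349.2 against 307.8, and was lower by a bound of -0.06.

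In the small subunit the lowest gene was Mrps9, a protein of the subunit's head region with a bacterial counterpart, with 1429.5 in negative and 800.6 in positive cells (-0.84, 1.79-fold lower). That probe set is of the type whose probes may bind other transcripts, and the 2 further probe sets of Mrps9 above the floor gave -0.24 and -0.13. The mean of all 3 was -0.40. Mrps36, which despite its name has been assigned to the 2-oxoglutarate dehydrogenase complex, read 1215.8 and 870.2 (-0.48). Mrps30 read 1523 and 1097.5 (-0.47), and Mrps31 read 2467.6 and 1804.4 (-0.45). Mrps2 read 2324.1 and 1703 (-0.45), while its other probe set gave 0.34. Mrps15, which binds the small ribosomal RNA, read 2115.8 and 1558.7 (-0.44), and another of its probe sets gave -0.22. The dimmest one passed the floor in positive cells only, at 139.6 and 382.6, and so lay on the higher side.

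Mrps28 (2588.9 and 1912.6, -0.44) and Mrps17 (1555.5 and 1156.1, -0.43) stood close to these genes, and each has 1 probe set above the floor. The small subunit ratios were uneven in the brightest probe sets: 8 genes lay from -0.84 to -0.43, and the next, Mrps10, stood at -0.25. No gene lay in between. This gap depended on the probe set. Others above both floors put Mrps9 at -0.24 and -0.13, Mrps15 at -0.22 and Mrps2 at 0.34.

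On the higher side of the small subunit stood Mrps33, at 1857.9 and 2428.9 (0.39, 1.31-fold higher), Mrps5 at 969.2 and 1264.5 (0.38) and Mrps25 at 681.8 and 883 (0.37). Mrps33 and Mrps25 are specific to mitochondria and rest on 1 probe set above the floor, whereas Mrps5, which lines the entrance of the messenger RNA channel, read -0.13 in its other one. Mrps11 (814.8 and 919.7, 0.17) and Mrps12, a protein of the decoding centre (1394.3 and 1560.5, 0.16), followed. Of 4 genes grouped by messenger RNA entrance and decoding, 2 were lower and 2 higher, at a median of -0.04. Mrps18c was at 0.04. The 3 paralogs of the Mrps18 family, which occupy different places in the ribosome, differed little: Mrps18a and Mrps18b were at -0.10 and -0.11.

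Proteins with a bacterial counterpart and those specific to mitochondria had the same median. Of 45 genes with such a counterpart 33 were lower, at a median log2 ratio of -0.14, and of 30 mitochondria-specific genes above the floor 24 were lower, also at -0.14. At least 1.2-fold lower were 13 genes (28.9%) of the first kind and 9 (30%) of the second, against 18.2% of all genes. At least 1.2-fold higher were 1 (2.22%) and 3 (10%), against 21.9%.

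The agreement between probe sets limits how firmly single genes can be read. Probe sets of 1 gene are the only repeated measurement in the series. Several probe sets passed the floor on both arrays for 25 mitochondrial ribosomal genes. The brightest read lower in 20 (80%), against 54.7% of 3182 such genes of the whole array. The second brightest read lower in 12 (48%), against 44.8%. The median of the second was 0.01, against -0.20 for the brightest, and over all such genes they were 0.05 and -0.03. Both were lower in 10 genes (40%), both higher in 3 (12%) and opposite in 12 (48%), where of all such genes 29.4% had both lower, 954 both higher and 40.5% opposite signs. Over all 37 further probe sets of these genes the median was -0.13 and 22 (59.5%) were lower, beside 43.2% and a median of 0.06 over all such probe sets. The gap between the 2 brightest had an SD of 0.30 in these genes and 0.42 over all such genes, and its median size was 0.22 and 0.26. The typical ratio of -0.14 is thus smaller than the usual gap between 2 probe sets of 1 gene, and the count of lower genes among these 25 depended on which probe set was read.

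Signs differed for 15 genes among probe sets that passed the floor on both arrays. Besides Mrpl15, Mrpl19, Mrpl28, Mrps2 and Mrps5, these were Mrpl9 (from -0.30 to 0.52 around -0.03 in the brightest), Mrps14 (-0.20 and 0.48), Mrpl39 (-0.12 and 0.34), Mrpl38 (-0.14 and 0.27), Mrpl34 (-0.26 and 0.25), Mrpl11 (-0.18 to 0.18), Mrpl52 (-0.29 to 0.05), Mrpl48 (-0.14 and 0.04), Mrps23 (-0.02 and 0.14) and Mrps6 (0.02 and -0.18). The widest gap between the 2 brightest was that of Mrps2, at 0.79. By contrast, Mrpl44, whose loss of function causes a human cardiomyopathy, was lower in all 3 of its probe sets above the floor, from -0.33 to -0.12, with 1908.3 and 1518.3 in the brightest. Mrpl41 (-0.31 and -0.14), Mrpl50 (-0.16 and -0.28) and Mrps24 (-0.24 and -0.14) were lower in both of theirs above the floor. On the other side, Mrpl21 was higher in all 3 of its own above the floor, from 0.07 to 0.38.

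**Figure D2:**
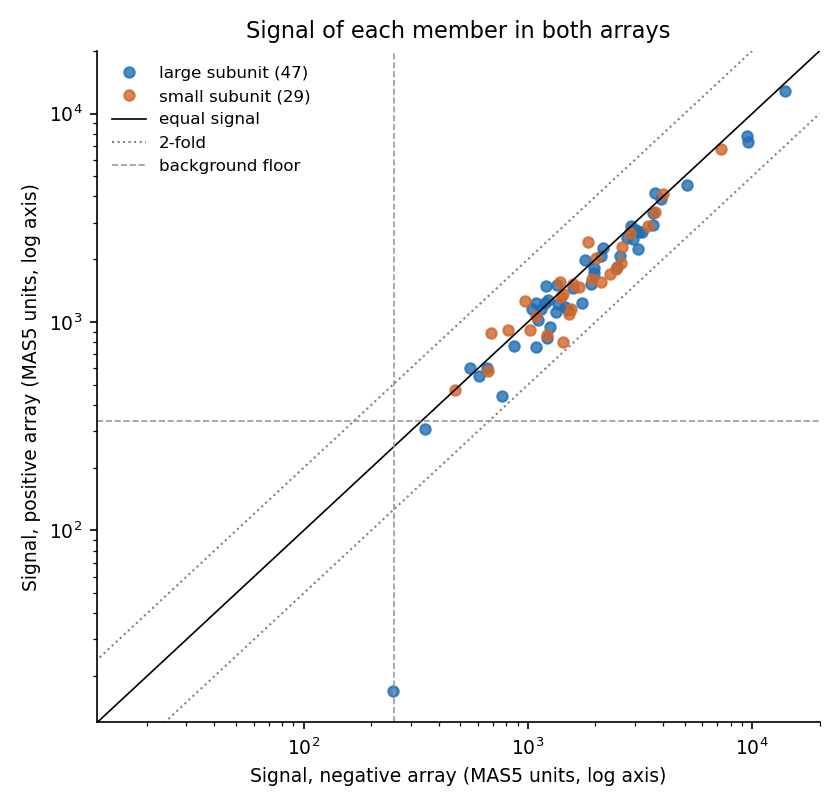
Signal of the brightest probe set of each gene in the negative (x axis) and positive array (y axis), in MAS5 units on log axes, with the floors dashed and 2-fold lines dotted. Points lie close to and mostly below the line of equal signal and none above the floors crosses a 2-fold line. The single point at the bottom is Mrpl45, at 250.9 and 17.

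The array as a whole held a trend with signal that runs the same way. Where both arrays exceeded the floor, 39.3% of those with a mean signal up to 1000 read lower, against 54.8% from 1000 to 2000, 60.8% from 2000 to 4000 and 71.9% above 4000. Most mitochondrial ribosomal genes are in the middle of that range. At matched signal they still read lower more often: 8 of 11 up to 1000, 23 of 33 (69.7%) from 1000 to 2000, 20 of 24 (83.3%) from 2000 to 4000 and 5 of 6 above it. Their medians in these ranges were -0.14, -0.14, -0.17 and -0.15, beside 0.09, -0.03, -0.06 and -0.12 over all genes. After a loess fit removed the trend, 53 of 75 were lower at a median of -0.14, beside 56.5% and -0.05 over all genes. The values over all genes include bounds, which the fit also moved.

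**Figure D3:**
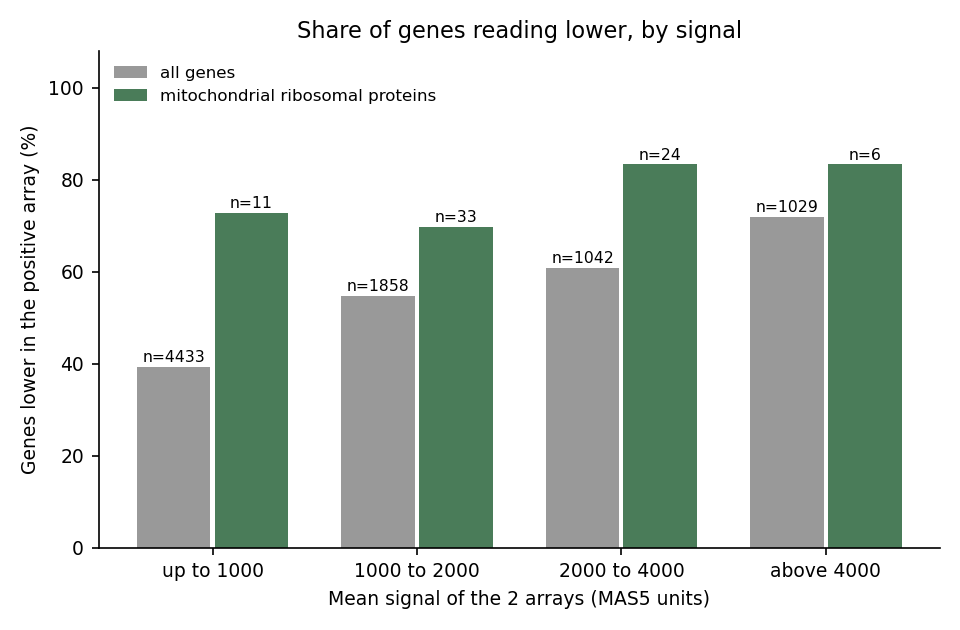
Share of genes that read lower in the positive array, in percent, by mean signal of the 2 arrays, for all genes above the floor in both arrays (grey) and for mitochondrial ribosomal protein genes (green), with the number of genes over each bar. The grey bars climb from 39.3% to 71.9%, and the green bars lie between 69.7% and 83.3%.

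Mitochondrial ribosomal proteins that carry other symbols read lower in 3 of 4 genes, among them the messenger RNA-binding Ptcd3 (1264.4 and 1014.3, -0.32), Chchd1 (-0.21) and Dap3 (-0.13). Of 11 translation factors above the floor, 5 were lower and 4 higher, the median being 0.00. The gene farthest from 0 in all lists of this translation system was one of them. The elongation factor Tufm, which delivers aminoacyl-tRNA to the mitochondrial ribosome, read 1524.6 and 729.5 (-1.06, 2.09-fold lower). Its other probe set above the floor gave -0.48, and both are of the type whose probes may bind other transcripts. The deformylase Pdf (0.41) and the initiation factor Mtif2 (0.34) read higher. Of 18 genes for mitochondrial aminoacyl-tRNA synthetases and the related amidotransferase, 9 were lower and 6 higher, led by Aars2 (-0.65), Ears2 (-0.64) and, on the higher side, Vars2 (0.59).

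Assembly factors and enzymes that modify the ribosomal RNA were lower in 15 of 23 genes at a median of -0.10. The RNA helicase Dhx30 (-0.60, with another probe set at -0.17), the GTPase Eral1 (-0.44) and Fastkd2 (-0.43) were farthest from 0. All of these probe sets are of the type whose probes may bind other transcripts. Genes that copy, transcribe and process mitochondrial DNA and RNA were lower in 11 of 16 at a median of -0.16. The RNA polymerase Polrmt read 867.4 and 617 (-0.49) and was lower in its second probe set (-0.42), Tfam, which packages the DNA and starts transcription, read 1311.3 and 996.3 (-0.40, second probe set -0.04), and Lrpprc, which stabilises the messenger RNAs, read 2927.4 and 2248.7 (-0.38). Of 9 nuclear regulators of these genes 5 were lower and 4 higher. Nrf1 read 396.1 and 577.3 (0.54), with other probe sets above the floor at 0.35 and 0.01, and Esrra read 678 and 515.3 (-0.40). The only transcript of mitochondrial DNA with a single-gene probe set, ND5, read 32971.4 and 34832.8 (0.08).

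Subunits of the respiratory chain and ATP synthase encoded in the nucleus were lower in 64 of 77 genes at a median of -0.24. Apart from those of complex II (Sdha to Sdhd), they belong to complexes that also hold proteins made on these ribosomes. Uqcrfs1 (-0.73) and Ndufs7 (-0.67) were lowest, and Cox8c (810.7 and 1274.3, 0.65) was highest. Cytosolic ribosomal proteins, matched by symbol, were lower in 38 of 44 genes at a median of -0.16. Farthest from 0 among those above both floors were Rps2, which read higher (8124.9 and 12898.2, 0.67), Rpl37 (-0.61) and Rpl39 (-0.60). The probe sets of Rps2 and Rpl37 are of the type whose probes may bind other transcripts. Lower readings were thus counted outside the mitochondrial ribosome too, and how these lists differ was not tested. Both of these lists lean to bright transcripts. After the loess fit the median was -0.14 for mitochondrial ribosomal proteins, -0.13 for respiratory subunits and -0.05 for cytosolic ribosomal proteins. Over all genes it was -0.05, a value that includes bounds moved by the fit. Translation factors (-0.12) and tRNA synthetases (-0.14), near 0 as deposited, then stood lower as well, but the fit also moved the bounds in these lists. After quantile normalization their medians were 0.00 and -0.09.

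**Figure D4:**
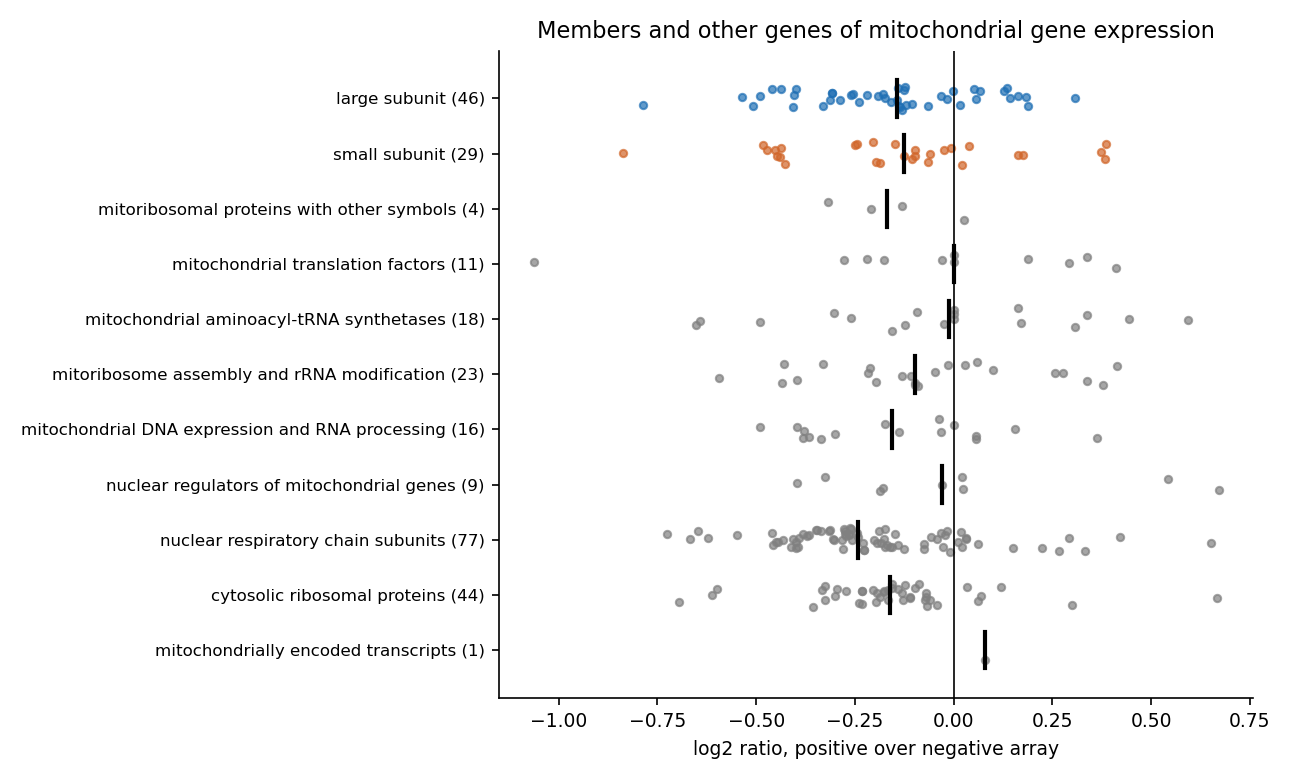
Log2 ratio (x axis) of each gene above the floor, with 1 row for each list and the number of genes in brackets. Coloured points are mitochondrial ribosomal proteins, grey points other lists, and black bars medians. Both subunits (-0.14 and -0.13), respiratory chain subunits (-0.24) and cytosolic ribosomal proteins (-0.16) lie mostly left of 0, and the point at -1.06 is Tufm.

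The labelled cell type was present in both arrays. All 7 hepatocyte markers with a probe set were above the floor and lower in the positive array, at a median of -0.15. Alb, for example, read 46434.5 and 38679.3. Their median was -0.03 after the loess fit. Of markers of other liver cells, 5 of 9 for macrophages, 2 of 7 for endothelial and 2 of 7 for stellate cells were below the floor in both arrays. Sums over a list are compared only between the arrays. They were 2720.8 and 2302.6 for 9 macrophage markers (3 lower and 1 higher of 4 above the floor), 3028 and 3508.9 for 7 endothelial markers (0 lower, 4 higher) and 2466.2 and 2571.9 for 7 stellate markers (2 lower, 3 higher). All 4 cholangiocyte markers were below the floor in both arrays, as were 3 of 4 lymphocyte markers and 1 of 2 red cell markers. The endothelial marker Stab1 (320.1 and 240.7) and the lymphocyte marker Cd79a (274 and 114.5) exceeded the floor in the negative array only. Their bound was set to 0, so they count as neither lower nor higher. Zonal genes differed far more than mitochondrial ribosomal proteins: pericentral markers were higher in 11 of 11 genes, at a median of 1.11, and periportal markers lower in 11 of 12, at -1.07. The part that this zonal difference has in the lower mitochondrial ribosomal readings was not tested.

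Promoters of the genes at both ends of the range, and of a pair of genes that share a start region, are shown because a start region is where such genes could share a feature. Windows of 300 bases, from 250 before to 50 after the annotated start, come from RefSeq on build GRCm38.p6, and 67 of the 76 genes matched. All are written 5′ to 3′ on the strand of the gene. Capitals mark the letters of 5 motifs on either strand: CCGGAAG, bound by ETS factors such as GABP, CGCATGCG, the core of the NRF1 site, AAGATGGC, bound by YY1, the E-box CACGTG and the TATA element TATAAA. The first of the windows is at chr6:71823735-71824034 (minus strand) for Mrpl35 and the second at chr19:45006393-45006692 (minus) for Mrpl43, the lowest and highest large subunit genes. Those at chr1:42850983-42851282 (plus) for Mrps9 and chr6:39810887-39811186 (minus) for Mrps33 are the lowest and highest of the small subunit, and chr7:78783040-78783339 (minus) is the window of Mrpl46.
Mrpl35: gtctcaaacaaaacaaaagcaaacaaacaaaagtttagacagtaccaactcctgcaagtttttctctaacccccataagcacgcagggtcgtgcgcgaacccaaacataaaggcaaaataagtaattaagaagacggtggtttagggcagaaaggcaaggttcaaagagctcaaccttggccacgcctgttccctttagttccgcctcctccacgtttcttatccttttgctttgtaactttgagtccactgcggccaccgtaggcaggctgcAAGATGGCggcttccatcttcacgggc
Mrpl43: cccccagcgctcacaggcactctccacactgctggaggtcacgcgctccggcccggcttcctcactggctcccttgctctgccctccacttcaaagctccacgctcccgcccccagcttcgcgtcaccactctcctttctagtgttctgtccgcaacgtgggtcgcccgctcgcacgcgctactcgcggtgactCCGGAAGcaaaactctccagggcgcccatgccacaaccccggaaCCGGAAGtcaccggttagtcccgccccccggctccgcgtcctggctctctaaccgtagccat
Mrps9: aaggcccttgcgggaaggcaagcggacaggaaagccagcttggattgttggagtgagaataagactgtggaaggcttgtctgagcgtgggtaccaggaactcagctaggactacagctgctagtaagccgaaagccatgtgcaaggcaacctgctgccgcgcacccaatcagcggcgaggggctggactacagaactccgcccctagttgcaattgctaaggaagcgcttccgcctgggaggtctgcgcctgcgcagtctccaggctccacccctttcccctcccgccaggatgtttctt
Mrps33: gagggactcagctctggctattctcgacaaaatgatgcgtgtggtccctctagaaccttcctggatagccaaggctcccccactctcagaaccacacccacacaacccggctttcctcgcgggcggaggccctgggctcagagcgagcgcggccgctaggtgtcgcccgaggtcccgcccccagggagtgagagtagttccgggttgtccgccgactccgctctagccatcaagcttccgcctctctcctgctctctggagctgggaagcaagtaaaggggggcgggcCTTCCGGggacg
Mrpl46: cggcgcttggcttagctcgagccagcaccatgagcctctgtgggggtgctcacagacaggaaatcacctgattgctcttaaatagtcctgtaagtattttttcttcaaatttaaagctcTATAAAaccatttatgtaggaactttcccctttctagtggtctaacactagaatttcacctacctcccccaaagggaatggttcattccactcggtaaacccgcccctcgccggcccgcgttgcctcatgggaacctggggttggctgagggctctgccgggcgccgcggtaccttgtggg

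Mrpl35 held the YY1 letters 24 bases after its start, and Mrpl43 held the ETS letters at -56 and -12. Mrps33 held ETS letters on the other strand at 39, Mrpl46 a TATA element at -131, and Mrps9 held none of the 5. These matches are letters in a window, not binding sites. Across the 67 promoters, 24 (35.8%) held the ETS letters, 12 (17.9%) those of YY1 and 7 (10.4%) those of NRF1, against 11.9%, 3.22% and 2.54% of 17492 protein-coding promoters and 18.4%, 4.97% and 3.97% of those of 8050 genes above the floor. The E-box was in 7.46% against 7.90% of all and 10.4% of those above the floor, and the TATA element in 5.97% against 13.3% and 7.40%. Mitochondrial ribosomal genes with the ETS letters had a median ratio of -0.08 and those without of -0.18. For YY1 the medians were -0.15 and -0.14, and for NRF1, with 7 genes, -0.11 and -0.17. Over all genes above the floor the medians with each of these 3 motifs lay between -0.04 and -0.01.

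A further feature is position. Of the 67 promoters, 23 (34.3%) started within 1000 bases of a protein-coding gene that runs the other way, head to head, against 8.04% of all protein-coding promoters and 12.6% of those above the floor. The neighbour's ratio, that of another transcript, is set beside the ratio of the mitochondrial ribosomal gene. Whether a nearby start has a part in either ratio was not tested. Of 17 neighbours above the floor, 10 were lower and 6 higher, at a median of -0.04, and in 7 of 17 pairs both genes were lower. The share of pairs with both lower was not counted over all head-to-head genes. Of all head-to-head genes above the floor, 52.2% were lower, at a median of -0.02. The pair of Mrpl46 and Mrps11 is counted from both sides, and the neighbours Sars2, Helq and Ncapd2 have bounds only. Mrpl47 and the complex I gene Ndufb5, whose starts lie 308 bases apart, read -0.49 and -0.37. Mrpl49 (-0.51) lies beside Fau, which encodes a cytosolic ribosomal protein and read 13439.8 and 12772.3 (-0.07). Mrpl43 (0.31) lies 116 bases from Twnk, the mitochondrial DNA helicase, which read 1688.8 and 1650.8 (-0.03). Mrpl46 of the large and Mrps11 of the small subunit start 42 bases apart and read -0.11 and 0.17. The median of mitochondrial ribosomal genes with a neighbour was -0.11, and of those without -0.20.

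**Figure D5:**
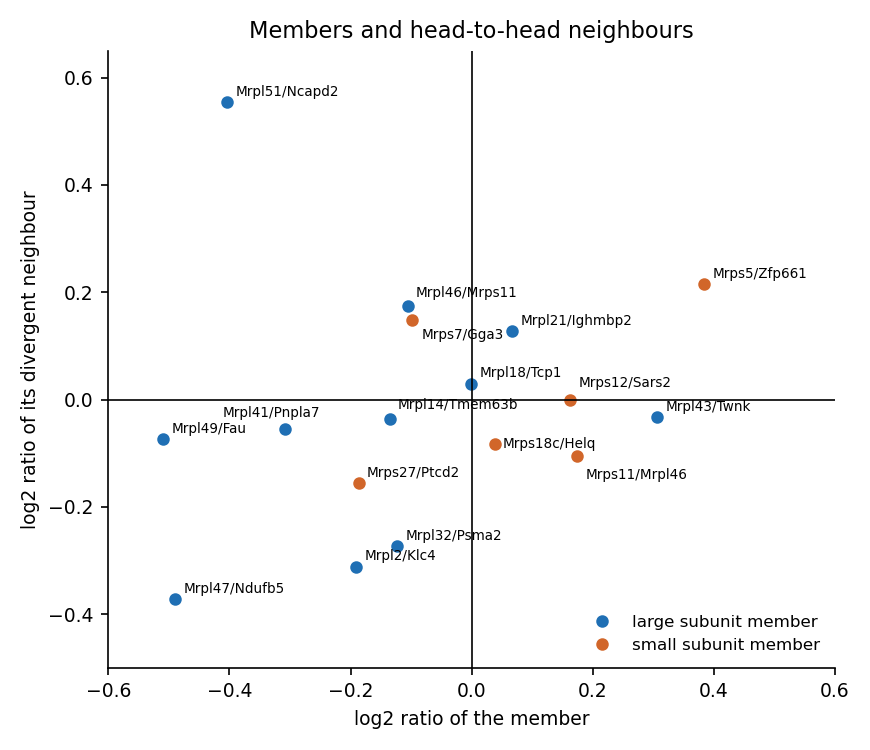
Log2 ratio of a mitochondrial ribosomal protein gene (x axis) and of the gene that starts head to head within 1000 bases of it (y axis), for 17 pairs with both above the floor, coloured by subunit. Mrpl46 and Mrps11 are each other's neighbour and appear as 2 points. Pairs lie on both sides of 0, from Mrpl47 with Ndufb5 at -0.49 and -0.37 to Mrps5 with Zfp661 at 0.38 and 0.21, and Ncapd2 beside Mrpl51 is a bound of 0.55.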

How the data were processed

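RNA of 1 EzrinT567D-negative and 1 EzrinT567D-positive hepatocyte sample was read on 1 array each. The deposited values are linear probe set intensities, made with MAS5 per the submitters' processing notes, with settings not given in the sources used here. Both arrays had a 2% trimmed mean of 500.0, which is one common level, and a shift of the whole transcriptome cannot be seen. Intensities depend on each probe, so levels were not compared between genes, and sums over marker lists only between the arrays.

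Of 45101 probe sets, 34945 carried 1 symbol in the platform annotation, 932 several, 9160 none and 64 were controls. Each gene was represented by its brightest probe set. The floor was the 95th percentile of 84 chemosensory receptor probe sets, which was 252.66 for negative and 334.04 for positive cells. Of 10178 genes above it, 1816 exceeded it in 1 array only and have a bound, the dim signal being raised to its floor. A bound pointing away from the measured side was set to 0, for 875 genes. Where the loess fit was used, its shift was taken from bounds too. Ratios are log2 of positive over negative, as deposited.

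With 1 array per group there is no test, p-value or replicate error. Named were the 6 highest and 6 lowest genes of each subunit above the floor in both arrays, genes past 1.5-fold, genes with a bound, genes whose probe sets differ in sign, and up to 3 genes of each other list. Further ones serve as examples and were picked with values known. The genes, lists and tests were chosen with earlier results of these data known. Mitochondrial DNA transcripts carry no mt- symbol in the annotation and were found by their RefSeq chromosome. Scripts were tested on simulated data. Analyses used Python 3.11.15, pandas 2.3.3 and statsmodels 0.14.6 (loess, span 0.3).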

Additional observations from a re-analysis of the deposited data

How the results depend on the processing

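Under the alternatives run, with no test, the share of mitochondrial ribosomal genes that read lower lay between 70.7% and 76.3%, beside 43.4% to 56.5% of all genes, and their median between -0.15 and -0.12. The share at least 1.2-fold lower came near that of all genes without probe sets of shared suffix (17.9% beside 17.1%), after loess (26.7% beside 24.5%) and with no floor (30.3% beside 28.5%). The loess shares of all genes (56.5% and 24.5%) include bounds moved by the fit. The alternatives were a 99th percentile floor, no floor, 1 floor for both arrays, genes above the floor in both arrays only, quantile normalization, loess, centring, the mean over probe sets, and probe sets without the suffixes _s_at, _x_at and _a_at. The subunit of Mrps30 and Mrps18a was also changed. Leaving out those probe sets removed most: 36 large subunit genes remained with 23 lower, 5 at least 1.2-fold lower and 4 at least 1.2-fold higher, and 20 small subunit genes with 3 higher, 5 at least 1.2-fold lower, 1 at least 1.2-fold higher and a median of -0.18. Large subunit genes at least 1.2-fold higher numbered 2 after loess and 2 with the mean over probe sets, against 1. In all, 15 genes turned sign under at least 1 alternative. Of genes past 1.2-fold as deposited these were Mrpl15 and Mrps5: Mrpl15 was at 0.034 after quantile normalization, where another of its probe sets became the brightest, and Mrps5 at -0.13 without those suffixes, which leaves its other probe set. Without them Mrpl39 (0.34), Mrpl38 (0.27) and Mrpl11 (0.18) turned higher and Mrps9 was at -0.13, and Mrps14 (0.14) turned higher with the mean over probe sets. Without a floor Mrpl45 was the 1 gene past 2-fold, from signals near and below background. No paired analysis was possible because each group holds 1 array. MAS5 scaling, 1 array per group, dim probe sets and the conflict over diet limit all values.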

Other observations

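Probe sets shared with another gene were left out of the values above. Mrpl30 shares its probe sets with Gm6238, and the brighter read 5157.5 in negative and 4605.3 in positive cells. The probe set of Mrpl53 and Ccdc142 read 1885.6 and 1627.9. Both read lower in the positive array, and neither can be given to 1 gene.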
